A study of Mus musculus with 15 samples.

Results

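The TGF-beta genes described here were the 10 genes Tgfb1, Tgfb2, Tgfb3, Inhba, Tgfbr1, Tgfbr2, Tgfbr3, Smad3, Smad7 and Tgfbi, taken by exact symbol from a table of centred log2 RNA-seq values for 17271 genes. All 10 were found in the table. The 15 samples were mouse mammary tumours with the genotype label p53-NULL and the strain label Balbc, so every group lacked p53. Each tumour belonged to 1 of 4 models. The model 2151R had 4 tumours, of which 2 were titled NT or NT2 and the other 2 carried title marks whose meaning is not given in the sources used here. T11 had 1 tumour. The model 2225L had 2 tumours, 1 with the code CP in its title and 1 with the code ROSEN. The model 2208L had 8 tumours, of which 4 were titled PBS, 3 were titled 3day nt and 1 was titled ROSEN. Ages of the mice are not given in the sources used here, and no label says whether tumours of a model came from separate mice, so p-values measure the spread between these samples only.

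TGF-beta is a secreted signal that is stored in the matrix in a latent form and must be released before it acts. The ligand brings together the type II receptor and the type I receptor, both kinases, and the type I receptor then phosphorylates the transcription factors Smad2 and Smad3. Activin, a related ligand, uses other receptors and the same Smads. In the mammary gland TGF-beta restrains the growth of normal epithelium, and in carcinoma it is known for its part in epithelial-mesenchymal transition.

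Each value is the log2 distance of a gene from its own centre, which is not stated, so it can be compared between tumours and not between genes, and 1 log2 unit is a 2-fold ratio. Differences were tested with limma in 1 fit of all samples, and a gene is called different at a Benjamini-Hochberg adjusted p-value under 0.05 over all 17271 genes. The table holds no counts, so sequencing depth is unknown. Median values over all genes ran from -0.29 to 0.10 between tumours. Adult skeletal muscle genes were far higher in replicate 3 of 2151R and in replicates 6 and 8 of 2208L than in other tumours of their models. The effect of leaving these samples out is given beside the calls of the 10 genes that it ends. The PBS tumours, the 3day nt tumours and 2151R each had their own run of numbers after CP in their titles. What these runs stand for cannot be told apart from subset or model. These were whole tumours, in which fewer cells of a type and less RNA per cell cannot be told apart.

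The models differed most at Inhba, which encodes the subunit of activin A, and at Tgfbi, which encodes a secreted matrix protein named for its induction by TGF-beta. Both genes had their highest values in 2151R and their lowest in 2225L, with 2208L between them. The receptor genes Tgfbr1 and Tgfbr2 and the inhibitory Smad gene Smad7 were also lower in 2225L than in both 2151R and 2208L. Tgfb2 had another order, with its lowest values in 2151R.

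**Figure D1:**
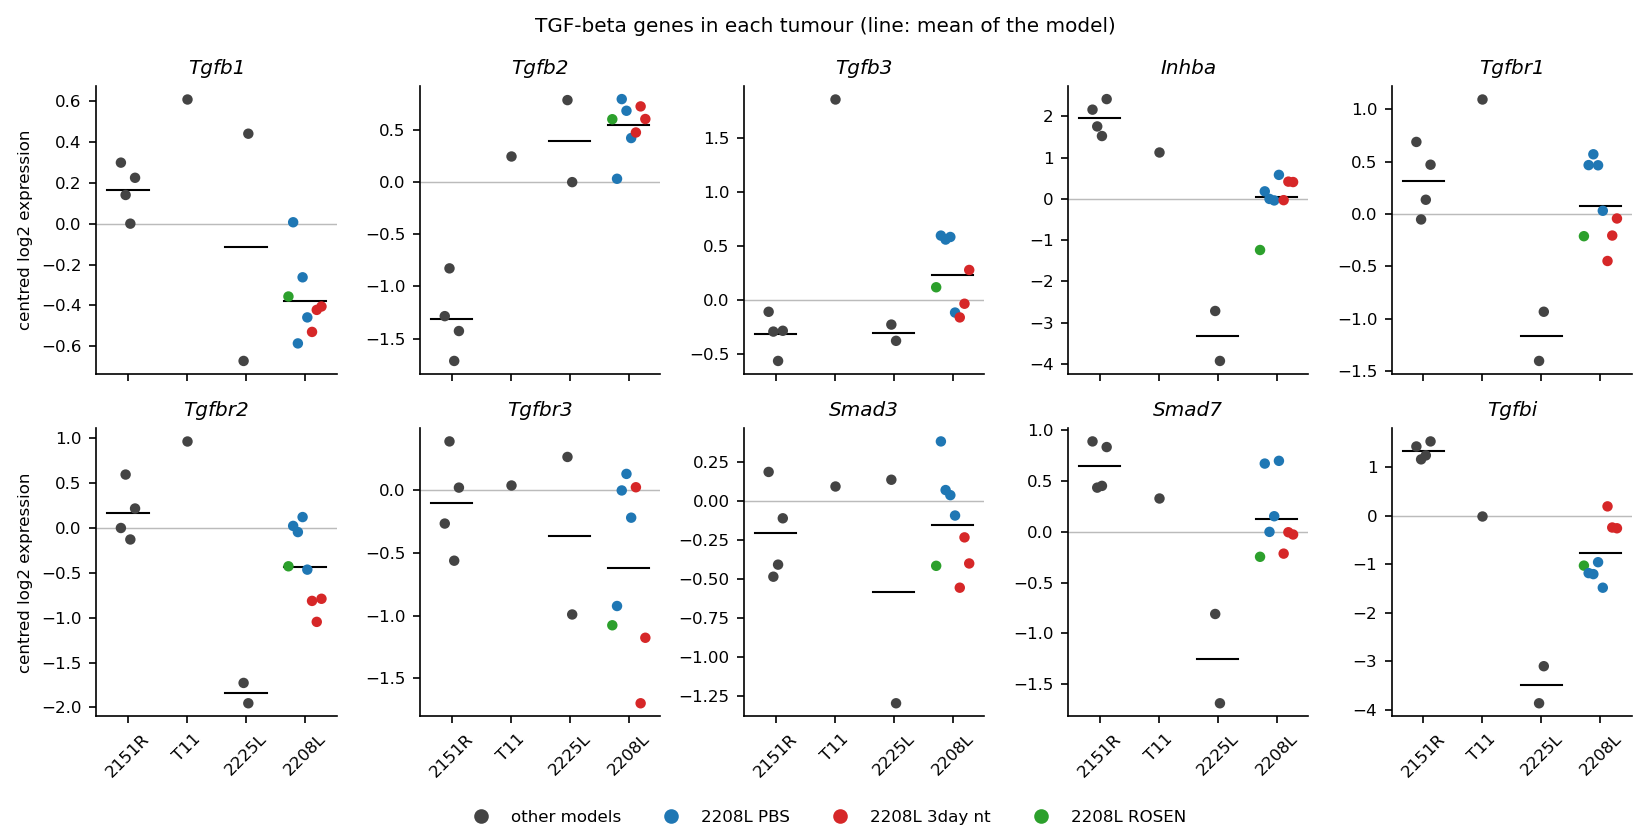
Centred log2 expression (vertical axes) of each of the 10 TGF-beta genes in each of the 15 tumours, grouped by model (horizontal axes), with colours for the subsets of 2208L and lines at model means. Both tumours of 2225L lie below every other tumour at Inhba, Tgfbr1, Tgfbr2, Smad7 and Tgfbi, and all 4 tumours of 2151R lie below the rest at Tgfb2.

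Inhba was 2.16, 1.76, 1.52 and 2.42 in the 4 tumours of 2151R and -2.72 and -3.93 in the 2 tumours of 2225L. In the 8 tumours of 2208L it ran from -1.24 to 0.58 with a median of 0.09, and it was 1.13 in T11. The 3 replicated models did not overlap. The difference between 2151R and 2208L was 1.93 (SE 0.33, limma adjusted p 0.000286), and that between 2225L and 2208L was -3.36 (SE 0.42, limma adjusted p 6.41e-05). Between 2225L and 2151R it was -5.29 (SE 0.46, limma adjusted p 1.06e-06). All 3 calls held under every alternative run, with differences from 1.70 to 2.13, from -3.96 to -2.75 and from -5.89 to -4.60. The lowest tumour of 2208L at Inhba was the ROSEN sample, and the other 7 lay between -0.04 and 0.58.

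Tgfbi was 1.42, 1.16, 1.24 and 1.53 in 2151R and -3.87 and -3.10 in 2225L. In 2208L it ran from -1.49 to 0.19 with a median of -0.996, and it was 0.00 in T11. Again the 3 replicated models did not overlap. Tgfbi was higher in 2151R than in 2208L by 2.11 (SE 0.30, limma adjusted p 5.98e-05). Against 2208L, 2225L differed by -2.71 (SE 0.38, limma adjusted p 0.000169), and against 2151R by -4.82 (SE 0.42, limma adjusted p 1.04e-06). These calls also held under every alternative run.

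Tgfb2, one of the 3 TGF-beta ligand genes, was -1.29, -0.83, -1.72 and -1.43 in 2151R. It was 0.79 and 0.00 in 2225L, 0.25 in T11 and from 0.03 to 0.80 in 2208L with a median of 0.60. No tumour of 2151R reached the range of another model. The difference was -1.86 between 2151R and 2208L (SE 0.20, limma adjusted p 5.34e-06) and 1.71 between 2225L and 2151R (SE 0.28, limma adjusted p 0.00028), and both calls held under every alternative run. Between 2225L and 2208L the difference was -0.15, with a 95% confidence interval from -0.71 to 0.41.

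Sequence before the RefSeq start sites of these 3 genes is shown because Inhba and Tgfbi ranked the replicated models alike while Tgfb2 did not. In RefSeq on GRCm38.p6, the assembly that mm10 names, Inhba spans chr13:16004256-16031609, Tgfbi chr13:56609586-56639359 and Tgfb2 chr1:186622787-186709697, and mm10 is the build in the submitters' processing notes. Promoters of 7 of the 10 genes, with 8 start sites, were matched by symbol, and Tgfb3, Tgfbr3 and Smad7 had no match. The printed windows are chr13:16011601-16011850 on the plus strand (Inhba), chr13:56609336-56609522 on the plus strand (Tgfbi) and chr1:186705990-186706239 on the minus strand (Tgfb2). The windows of Inhba and Tgfb2 lie inside the RefSeq spans of their genes, which begin farther upstream, and that of Tgfbi was ended where a GENCODE exon of the gene begins. In GENCODE, no exon of its own gene overlaps a printed window. The Inhba window overlaps the gene B230303A05Rik and the Tgfb2 window overlaps an exon of Gm29491, both on the opposite strand. The windows are written 5′ to 3′ along the gene, and capitals mark CAGAC, the core letters of the Smad binding element, and GGGCGG, the GC box, on either strand.
Inhba: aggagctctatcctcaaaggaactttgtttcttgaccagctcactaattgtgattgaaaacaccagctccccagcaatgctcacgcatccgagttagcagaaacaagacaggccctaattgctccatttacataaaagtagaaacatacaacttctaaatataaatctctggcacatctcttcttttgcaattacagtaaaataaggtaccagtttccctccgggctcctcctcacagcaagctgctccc
Tgfbi: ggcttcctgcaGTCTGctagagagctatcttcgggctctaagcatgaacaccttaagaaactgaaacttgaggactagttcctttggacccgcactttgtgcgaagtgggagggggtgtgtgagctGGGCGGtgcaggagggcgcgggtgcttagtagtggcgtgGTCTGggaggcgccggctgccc
Tgfb2: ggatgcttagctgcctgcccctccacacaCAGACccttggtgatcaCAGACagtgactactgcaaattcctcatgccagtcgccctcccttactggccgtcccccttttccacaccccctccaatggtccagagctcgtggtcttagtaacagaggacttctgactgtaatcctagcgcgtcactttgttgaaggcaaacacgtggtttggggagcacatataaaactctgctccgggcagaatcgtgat
The Smad core occurred 0 times in the Inhba window, 2 times in that of Tgfbi and 2 times in that of Tgfb2, and the GC box occurred 1 time, in that of Tgfbi. No marked motif overlapped another. The AP-1 site TGANTCA and the cAMP response element TGACGTCA, searched on both strands, occurred in none of the 8 windows of 250 bases. Of 32851 RefSeq windows of 250 bases, 42.2% held CAGAC on either strand, 32.7% GGGCGG, 6.75% TGANTCA and 1.55% TGACGTCA. A match describes letters in these windows only.

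The other 2 TGF-beta ligand genes differed less. Tgfb1, the most widely expressed isoform gene in mammals, was 0.30, 0.14, 0.00 and 0.22 in 2151R and ran from -0.59 to 0.01 in 2208L with a median of -0.41. It was -0.67 and 0.44 in 2225L and 0.61 in T11. The groups of 2151R and 2208L overlapped at 1 tumour each. Their difference of 0.54 (SE 0.18) passed the test at a limma adjusted p of 0.0258, and the call was lost in 7 of 24 alternatives, among them leaving out replicate 1, 2 or 4 of 2151R (0.50, 0.55 and 0.52) and leaving out the tumours with high muscle genes (0.57, limma adjusted p 0.0755). The tumours of 2225L lay on opposite sides of 2208L, and neither comparison of 2225L passed.

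Tgfb3 was -0.11, -0.29, -0.56 and -0.28 in 2151R, -0.23 and -0.38 in 2225L and 1.86 in T11. Over 2208L it ran from -0.16 to 0.60 with a median of 0.20. The value in T11 was the highest of the 15 tumours. Between 2151R and 2208L the difference was -0.54 (SE 0.18, limma adjusted p 0.0231), a call lost in 5 of 25 alternatives, among them leaving out replicate 3 or 4 of 2151R (-0.46 and -0.55) and leaving out the tumours with high muscle genes (-0.51, limma adjusted p 0.0704). Between 2225L and 2208L it was -0.53 (SE 0.23, limma adjusted p 0.0956).

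Tgfbr2 encodes the type II receptor, which binds the ligand first. It was 0.00, 0.60, -0.13 and 0.22 in 2151R, -1.73 and -1.95 in 2225L, and 0.96 in T11. Over 2208L it ran from -1.05 to 0.12 with a median of -0.45. Both tumours of 2225L lay below all others. The difference was -1.41 against 2208L (SE 0.30, limma adjusted p 0.00314) and -2.01 against 2151R (SE 0.33, limma adjusted p 0.000265). The call against 2208L was lost with sample weights (limma adjusted p 0.0577). Between 2151R and 2208L it was 0.60 (SE 0.23, limma adjusted p 0.048), with overlapping groups. That call was lost in 17 of 25 alternatives, among them centring each sample on its median (0.54), leaving out replicate 1, 2 or 4 of 2151R (0.66, 0.46 and 0.59) and leaving out replicate 1, 5, 6, 7 or 8 of 2208L (0.51 to 0.60). It was also lost without the tumours with high muscle genes (0.58, limma adjusted p 0.104).

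Tgfbr1 encodes the type I receptor kinase that phosphorylates Smad2 and Smad3. It was 0.69, -0.05, 0.14 and 0.47 in 2151R, -1.40 and -0.93 in 2225L, and 1.10 in T11. Over 2208L it ran from -0.45 to 0.57 with a median of -0.01. The 2 tumours of 2225L were again the lowest of all. The difference was -1.25 against 2208L (SE 0.29, limma adjusted p 0.00482) and -1.48 against 2151R (SE 0.31, limma adjusted p 0.00173). The first call was lost with sample weights and without replicate 1 of 2225L (-1.01). Between 2151R and 2208L it was 0.23, with a 95% confidence interval from -0.25 to 0.71.

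Tgfbr3 encodes betaglycan, a co-receptor that presents TGF-beta2 in particular. It varied within models as much as between them, from -0.56 to 0.39 in 2151R, from -1.70 to 0.13 in 2208L and at 0.27 and -0.99 in 2225L, with 0.05 in T11. None of its model comparisons passed, and the 95% confidence interval for 2151R against 2208L ran from -0.29 to 1.32.

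Smad7, which encodes an inhibitory Smad that is itself a TGF-beta target, was 0.89, 0.44, 0.45 and 0.84 in 2151R, -0.81 and -1.69 in 2225L and 0.33 in T11. Over 2208L it ran from -0.25 to 0.70 with a median of 0.00. The tumours of 2225L lay below every other tumour. The difference was -1.38 against 2208L (SE 0.29, limma adjusted p 0.00286) and -1.90 against 2151R (SE 0.32, limma adjusted p 0.000305). The call against 2208L was lost with sample weights and without replicate 2 of 2225L (-0.94). Between 2151R and 2208L the difference of 0.52 did not pass (SE 0.23, limma adjusted p 0.0702).

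Smad3, a receptor-activated Smad gene, showed no model difference that passed. It ran from -0.48 to 0.19 in 2151R and from -0.55 to 0.38 in 2208L, and was 0.10 in T11. The 2 tumours of 2225L stood apart from each other, at 0.14 in the CP sample and -1.30 in the ROSEN sample. The difference between 2225L and 2208L was -0.43, with a 95% confidence interval from -1.14 to 0.28.

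Read against the background, the 10 genes were called about as often as any gene in the comparisons with 2151R. Between 2151R and 2208L, 4 were higher (Inhba, Tgfb1, Tgfbr2 and Tgfbi) and 2 lower (Tgfb2 and Tgfb3), where 48.8% of all 17271 genes were called. Leaving out replicate 4 of 2151R left 3 called, as did leaving out the 3 tumours with high muscle genes. Between 2225L and 2208L, 5 were lower (Inhba, Tgfbr1, Tgfbr2, Smad7 and Tgfbi) and 0 higher, where 32.9% of all genes were called and 17.3% were lower. With sample weights in the fit 2 were called, and of all genes 958 were then higher and 1200 lower, beside 2693 and 2994 without weights. Between 2225L and 2151R, 5 were lower (those 5 genes) and Tgfb2 was higher, where 48.6% of all genes were called, 25.8% lower and 22.8% higher. The median difference of the 10 genes was 0.52, -0.89 and -0.93 in these comparisons, and that of all genes was 0.10, -0.04 and -0.10. The comparisons share samples.

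**Figure D2:**
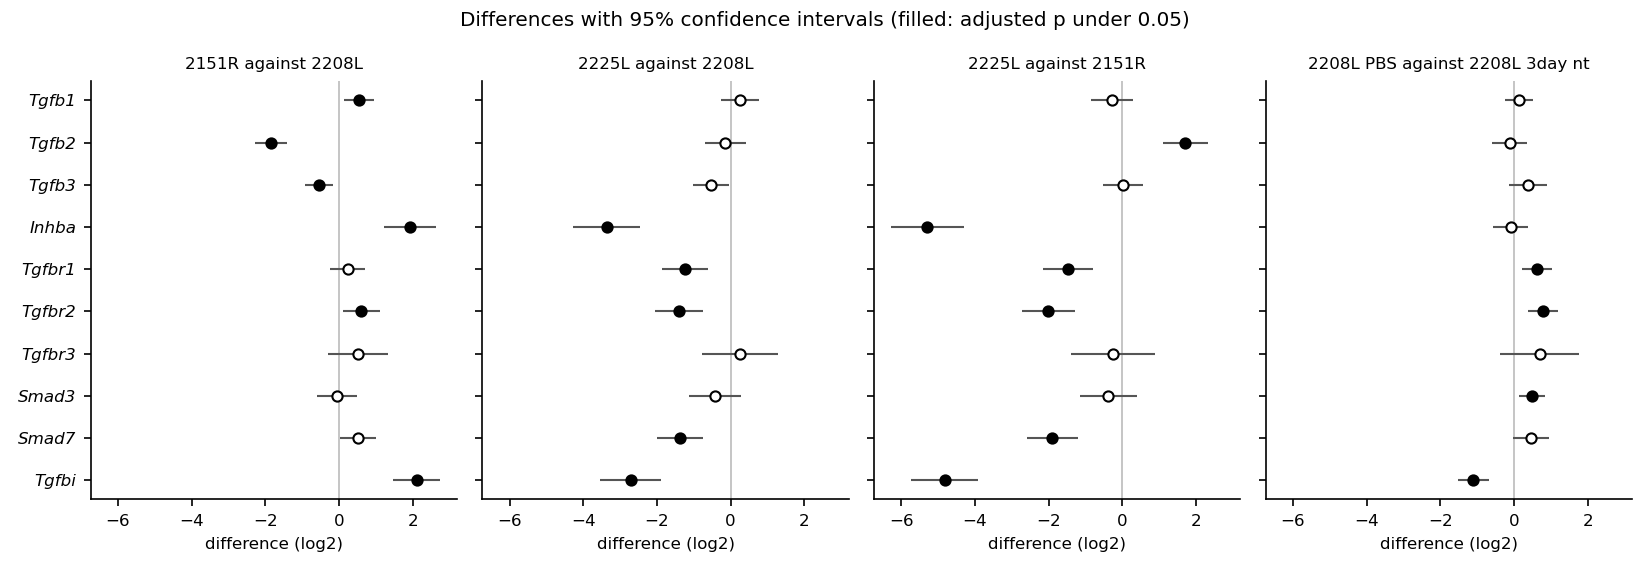
Difference in log2 expression (horizontal axes) for each of the 10 genes in 4 comparisons, with bars for 95% confidence intervals and filled points for limma adjusted p-values under 0.05. Tgfbi and Inhba have the largest differences in the comparisons with 2225L, at -2.71 and -3.36 against 2208L.

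Genes that TGF-beta is known to induce were followed as a list of 22, all in the table. This list, like the others, was chosen with earlier results of these data known, so its counts beside all genes only describe it. Between 2225L and 2208L 12 of the 22 were lower and 1 was higher, beside 17.3% and 15.6% of all genes, and their median difference was -1.10 against -0.04 for all genes. Among the lower genes the largest differences were at Fn1, the gene of fibronectin (-2.95, SE 0.53, limma adjusted p 0.000926), and at Tnc, the gene of tenascin C (-2.64, SE 0.49, limma adjusted p 0.00125). The gene that was higher was Snai2, which encodes an epithelial-mesenchymal transition factor (2.90, SE 0.46, limma adjusted p 0.000386). Junb (-2.30), Plaur (-2.29) and Ccn1 (-2.40), chosen here after their values were seen, were among the 12. Among the 9 genes not called were Col1a1 (-0.86), Col1a2 (-0.97) and Postn (-0.57). With sample weights 7 of the 22 were called, where 958 of all genes were higher and 1200 lower. Fewer than with all samples were also called without replicate 2 of 2225L, which leaves 1 tumour in that model.

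Feedback and co-factor genes gave a like picture in 2225L. Of 12 genes in that list, 5 were lower than in 2208L and 0 higher, beside 17.3% and 15.6% of all genes, with a median difference of -0.70. Skil, which encodes the co-repressor SnoN and is a rapid TGF-beta target, was -1.17 and -1.91 in 2225L and ran from 0.21 to 1.24 in 2208L (difference -2.34, SE 0.30, limma adjusted p 6.81e-05). Pmepa1, which encodes a membrane protein that holds back Smad signalling, was -0.48 and -1.55 in 2225L and from 0.56 to 1.19 in 2208L (difference -1.87, SE 0.25, limma adjusted p 0.000118). Neither gene overlapped between these models. Of the 12, 3 were called after quantile normalization, where 2430 of all genes were lower and 2411 higher. With sample weights 2 were called, where 1200 of all genes were lower and 958 higher. Against the 3day nt tumours of 2208L alone 2 were called, where 2873 of all genes were lower and 2352 higher. Against its PBS tumours alone 10 were called, where 3948 of all genes were lower and 3608 higher. Fewer than with all samples were called without replicate 2 of 2225L, which leaves 1 tumour in that model.

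The same lists looked different in 2151R. Of the 22 response genes, 2 were higher than in 2208L and 6 lower, beside 26.1% and 22.7% of all genes. Plaur, the gene of the urokinase receptor, was higher by 1.005 (SE 0.21, limma adjusted p 0.00127), and Adam12, a metalloproteinase gene, by 1.05, a call lost in 12 of 25 alternatives. Ccn2, the gene of connective tissue growth factor, was lower (-2.71, SE 0.42, limma adjusted p 0.000145), as were Bhlhe40 (-1.94, SE 0.24) and Tagln, a smooth muscle actin-binding protein gene (-1.68, SE 0.40). Of the 12 feedback and co-factor genes, 3 were higher (Zfyve9, Smad4 and Tgif1, by 0.50 to 0.64) and 4 lower. The call of Tgif1 was lost in 8 of 25 alternatives, among them centring each sample on its median, leaving out replicate 1, 3 or 4 of 2151R and leaving out the tumours with high muscle genes. That of Smad4 was lost in 2 of 25 and that of Zfyve9 in 1 of 24. The lower ones were led by Smad6, an inhibitory Smad gene (-2.85, SE 0.30, limma adjusted p 3.74e-06), Bambi, which encodes a decoy receptor (-2.38, SE 0.23, limma adjusted p 1.66e-06), and Eng, which encodes endoglin (-1.01, SE 0.27), whose call was lost against the 3day nt tumours alone (-0.62). Tgfbi and Ccn2 are both known targets and differed from 2208L in opposite directions in 2151R.

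**Figure D3:**
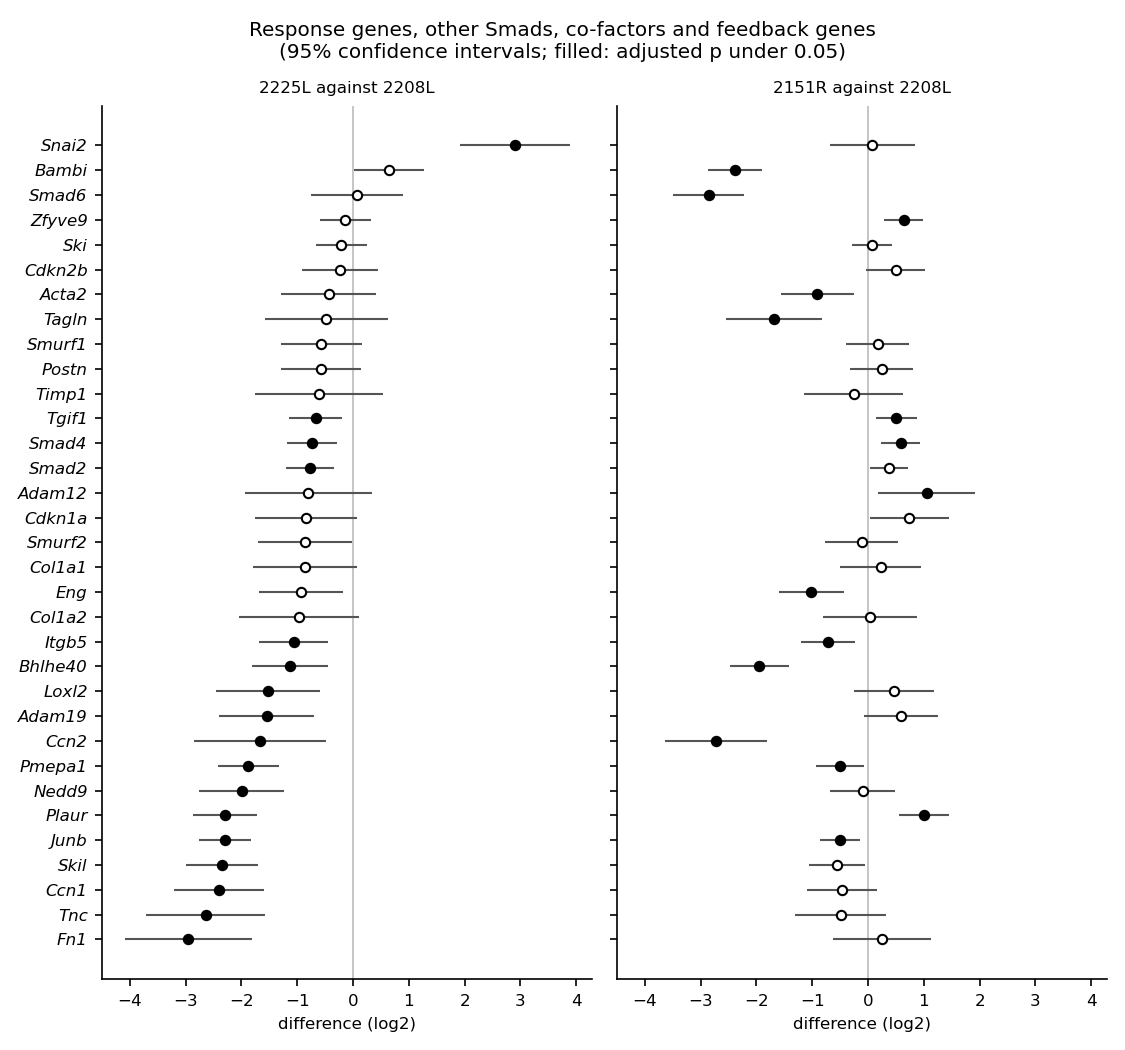
Difference in log2 expression from 2208L (horizontal axes) for the response genes and the Smad, co-factor and feedback genes in 2225L (left) and 2151R (right), with 95% confidence intervals and filled points for limma adjusted p-values under 0.05. In 2225L Snai2 is the 1 gene called higher, and Fn1 (-2.95) lies farthest below 0 among the genes drawn and called; 1 response gene is not drawn.

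Genes that store and release latent TGF-beta were followed as a list of 13. Against 2208L, 2151R had 6 of the 13 higher and 5 lower, beside 26.1% and 22.7% of all genes. Itgb6, which encodes the epithelial integrin subunit that activates latent TGF-beta, ran from -2.54 to 0.39 in 2151R and from 3.92 to 5.15 in 2208L, which made it lower in 2151R (-5.68, SE 0.45, limma adjusted p 2.95e-07). It was 0.00 and 1.76 in 2225L, again below 2208L (-3.65, SE 0.58, limma adjusted p 0.000423), and -3.11 in T11. Itgb8, another activating integrin subunit gene, was also lower in 2151R (-1.72, SE 0.34), as was Thbs1, the gene of thrombospondin 1 (-1.96, SE 0.36). Itgav, the partner subunit gene of Itgb6 and Itgb8, was higher (1.29, SE 0.25, limma adjusted p 0.000796). Also higher were the latent TGF-beta binding protein gene Ltbp1 (1.24, SE 0.24) and Nrros (1.11, SE 0.30), whose product anchors latent TGF-beta on myeloid cells. The call of Nrros was lost in 2 of 25 alternatives, among them against the 3day nt tumours alone (0.51). In 2225L 1 of the 13 was higher than in 2208L and 5 were lower, beside 15.6% and 17.3% of all genes, among them Ltbp2 (-3.63, SE 0.43, limma adjusted p 4.2e-05). Ltbp1 was the one higher (0.99, SE 0.31, limma adjusted p 0.0259), a call lost in 6 of 22 alternatives, among them leaving out replicate 1 of 2225L and leaving out the tumours with high muscle genes (0.92, limma adjusted p 0.0646). The Itgb6 call in 2225L was lost with sample weights.

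In the activin arm 7 of 8 listed genes were in the table. Beside the higher Inhba of 2151R, Inhbb, the gene of the other main activin subunit, was lower there than in 2208L (-1.85, SE 0.48, limma adjusted p 0.00637), with the activin receptor genes Acvr1b (-1.24, SE 0.16) and Acvr2a (-0.57, SE 0.17). The call of Inhbb was lost in 2 of 25 alternatives, among them against the 3day nt tumours alone (-0.70). The call of Acvr2a was lost without replicate 3 of 2151R and against the 3day nt tumours alone. Of the 7, 3 were called lower and 0 higher, beside 22.7% and 26.1% of all genes. Beside the lower Inhba of 2225L, 2 of the 7 were higher than in 2208L and 0 lower, beside 15.6% and 17.3% of all genes. These were Inha, the inhibin subunit gene (4.70, SE 1.09, limma adjusted p 0.0052), and Fst, the gene of the activin antagonist follistatin (1.89, SE 0.48, limma adjusted p 0.00877). The Inha call was lost without replicate 1 of 2225L. The Fst call was lost without replicate 2, with sample weights and against the 3day nt tumours alone.

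**Figure D4:**
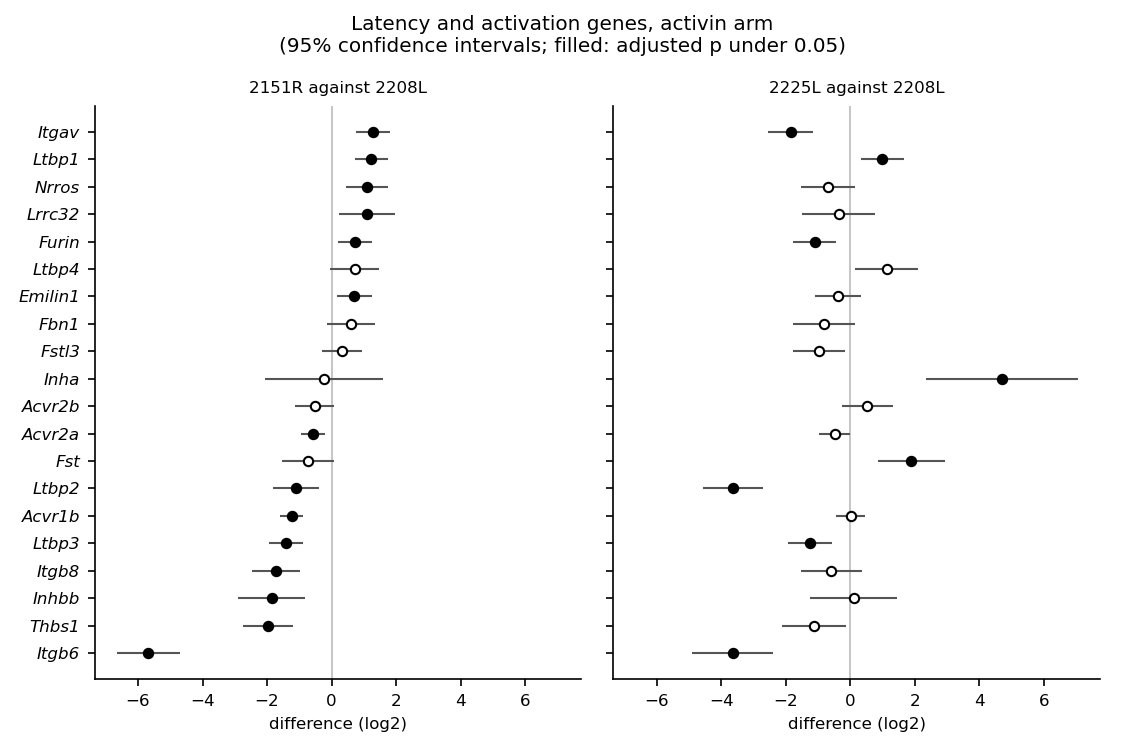
Difference in log2 expression from 2208L (horizontal axes) for the latency and activation genes and the activin arm in 2151R (left) and 2225L (right), with 95% confidence intervals and filled points for limma adjusted p-values under 0.05. Itgb6 lies farthest below 0 in 2151R (-5.68), and Inha lies farthest above 0 in 2225L (4.70).

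Of 15 genes of the related BMP arm, 2151R had 5 higher and 1 lower against 2208L, beside 26.1% and 22.7% of all genes. Bmp2, a BMP ligand gene, averaged 2.18 ± 0.14 over 2151R (SD, n = 4) against -1.05 ± 0.71 over 2208L (SD, n = 8), which made 3.22 (SE 0.34, limma adjusted p 4.2e-06), and Acvr1, a type I receptor gene, was higher by 1.27 (SE 0.15). The BMP target Id2 was lower (-2.84, SE 0.23, limma adjusted p 3.77e-07). Id3 (1.09, limma adjusted p 0.0623) and Id1 (-0.28, limma adjusted p 0.69) of the same list did not pass. In 2225L 2 of the 15 were higher than in 2208L and 3 lower, near the 15.6% and 17.3% of all genes. The receptor gene Bmpr1a was higher than in 2208L in 2151R (0.64, SE 0.17, limma adjusted p 0.00777) and in 2225L (0.70, SE 0.22, limma adjusted p 0.0288). Its calls were lost in 2 of 25 and 6 of 22 alternatives. That in 2225L was also lost without the tumours with high muscle genes (0.61, limma adjusted p 0.0636). Bmp7, another ligand gene, was 8.51 and 8.72 in 2225L and from -0.43 to 1.87 in 2208L (difference 7.93, limma adjusted p 6.61e-05), while the receptor gene Bmpr1b was lower (-2.72, SE 0.49, limma adjusted p 0.00101), as was the BMP antagonist gene Grem1 (-3.15, SE 0.85). The Grem1 call was lost without either tumour of 2225L and with sample weights (limma adjusted p up to 0.109).

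Within 2208L the tumours titled PBS and those titled 3day nt were compared in a fit of their own, where 34.0% of all genes were called. Of the 10 genes, Tgfbr1, Tgfbr2 and Smad3 were higher in PBS tumours and Tgfbi was lower. Tgfbr2 was 0.02, -0.05, 0.12 and -0.46 in the 4 PBS tumours and -0.81, -1.05 and -0.79 in the 3 others, without overlap (difference 0.79, SE 0.17, limma adjusted p 0.0147). Tgfbi was -1.19, -1.21, -0.96 and -1.49 in PBS tumours and 0.19, -0.25 and -0.26 in 3day nt tumours, also without overlap (difference -1.10, SE 0.18, limma adjusted p 0.00689). Tgfbr1 differed by 0.62 (SE 0.17, limma adjusted p 0.0346) and Smad3 by 0.50 (SE 0.15, limma adjusted p 0.0438). Tgfb1, Tgfb2, Tgfb3, Inhba, Tgfbr3 and Smad7 did not pass.

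Markers of other cells were also compared between these subsets, where 17.4% of all genes were higher and 16.5% lower in PBS tumours. The mean of 5 adipocyte markers was -3.35, -4.24, 1.68 and -3.79 in the PBS tumours and 1.68, 1.40 and 1.33 in the 3day nt tumours, and none of the 5 was called. Of 5 T cell markers 2 were lower in PBS tumours, with list means from -2.37 to 0.40 against 0.25 to 0.81. Of 8 fibroblast markers 2 were lower in PBS tumours, with list means from -0.85 to -0.07 against -0.70 to 0.72. Of 8 skeletal muscle markers 1 was lower in PBS tumours, with list means from -4.45 to 1.72 against 0.43 to 9.13. Among 6 smooth muscle and pericyte markers 1 was lower in PBS tumours (Cnn1, -1.14), with list means from -0.50 to 0.17 against -0.37 to 1.57. Among 7 macrophage markers 1 was higher in PBS tumours (Mertk, 1.09), with list means from -1.15 to 0.16 against -0.21 to 0.59. In each of these lists the means of the subsets overlapped. Lep and Plin1 of the adipocyte list and Myh4 and Pvalb of the muscle list have values repeated exactly between samples. The part of these cells in the 4 calls was not tested.

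These calls rested on few tumours. Leaving out replicate 8 of 2208L left only Tgfbi called, leaving out replicate 2, 3, 4 or 6 left 2 called, and leaving out both tumours with high muscle genes left none of the 10 called, with 1 tumour titled 3day nt remaining. In that last fit Tgfbi differed by -0.96 and Tgfbr2 by 0.96, with limma adjusted p of 0.159 and 0.181, 76 of all 17271 genes were higher and 22 lower, and the lone tumour is assumed to vary like the PBS tumours.

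In the pathway lists of this comparison, 8 of the 12 feedback and co-factor genes were higher in PBS tumours and 0 lower, and so were 6 and 0 of the 13 latency and activation genes, beside 17.4% and 16.5% of all genes. The ubiquitin ligase genes Smurf2 (1.06, SE 0.14) and Smurf1 (0.85, SE 0.15), whose products act on receptors and Smads, led the first list, and Itgb8 (1.05, SE 0.17) and Ltbp2 (0.71, SE 0.22) the second. Of the 22 response genes 5 were higher and 2 lower, with Fn1 (1.46, SE 0.20) and Nedd9 (0.78, SE 0.20) the highest and Timp1 (-1.56, SE 0.22) and Tagln (-1.17, SE 0.23) the lowest. In the activin arm Inhbb (2.01, SE 0.14) and Fstl3, an activin-binding protein gene (0.95, SE 0.18), were higher and Inha was lower (-1.91, SE 0.51). In the BMP arm Smad9 (1.62) and Bmpr1a (0.51) were higher, and Nog (-4.34) and Id3 (-0.93) lower. Nog has a value repeated exactly between samples, which is not read as a measured level. Without the tumours with high muscle genes none of the genes named in this paragraph kept its call.

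T11 has 1 tumour and its values carry no test. Of the 10 genes, 4 were higher than the mean of 2208L by at least 1 log2 unit (Tgfb3, Inhba, Tgfbr1 and Tgfbr2) and 0 lower, where 38.5% of all genes lay past that difference and 22.9% were higher. Tgfb3 stood out with a difference of 1.63 from 2208L and 2.17 from 2151R. Against 2151R, Tgfb3 and Tgfb2 (1.57) were higher by at least 1 log2 unit and Tgfbi lower (-1.34), where 25.5% of all genes lay past it, 15.0% higher and 10.5% lower. Of the 22 response genes 8 were higher than 2208L and 1 lower by that measure, and of the 13 latency and activation genes 6 were higher and 1 lower, the lower one being Itgb6 (-7.64).

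Cell type markers were checked in the same tumours. Of 8 epithelial markers 7 were lower and 1, Krt5, higher in 2151R than in 2208L, beside 22.7% and 26.1% of all genes. All 8 lay at least 1 log2 unit lower in T11 than in 2208L, where 15.6% of all genes did. Krt5 has a value repeated exactly between samples, which is not read as a measured level, and it counts in the list mean. The mean of the list ran from 3.21 to 3.36 in 2225L, from 1.004 to 2.16 in 2208L and from -3.27 to -2.30 in 2151R. It was -7.18 in T11. The label mammary tumour thus goes with high epithelial genes in 2225L and 2208L and low ones in 2151R and T11. Between 2225L and 2208L only Krt5 (9.81) and Krt14 (4.50) were called, both higher in 2225L, and 6 of the 8 markers were not called. The median difference of the list was 0.14 there. Because each gene is centred, the table does not show whether a marker is absent. Of 7 macrophage markers 6 were higher in 2151R than in 2208L, beside 26.1% of all genes. In 2225L 3 were lower than in 2208L, beside 17.3% of all genes. The mean of the macrophage list ran from 0.71 to 1.08 in 2151R, from -1.57 to 0.59 in 2208L and from -1.30 to -1.04 in 2225L, and was 1.37 in T11. The ROSEN tumour of 2208L, which had the lowest macrophage mean of all (-1.57), had the lowest Inhba of its model (-1.24). Its Tgfbi (-1.03) lay inside the range of the PBS tumours (-1.49 to -0.96). Replicate 3 of 2208L had a macrophage mean of -1.15 and Inhba at 0.00. Of 8 fibroblast markers 4 were higher in 2151R than in 2208L, and of 6 endothelial markers 5 were, beside 26.1% of all genes. Among 5 adipocyte markers 2 (Lep and Fabp4) were higher in 2151R than in 2208L and 0 lower, beside 26.1% and 22.7% of all genes. Lep has values repeated exactly between samples. The adipocyte mean ran from 1.09 to 4.18 in 2151R, from -4.24 to 1.68 in 2208L and from -3.41 to 1.23 in 2225L. In T11 it was -1.75. Among 6 smooth muscle and pericyte markers 1 was higher in 2151R and 2 lower, beside the same shares. In 2225L against 2208L 1 fibroblast marker was called, higher, and 0 endothelial markers, where 32.9% of all genes were called. The part of these cells in the differences above was not tested.

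**Figure D5:**
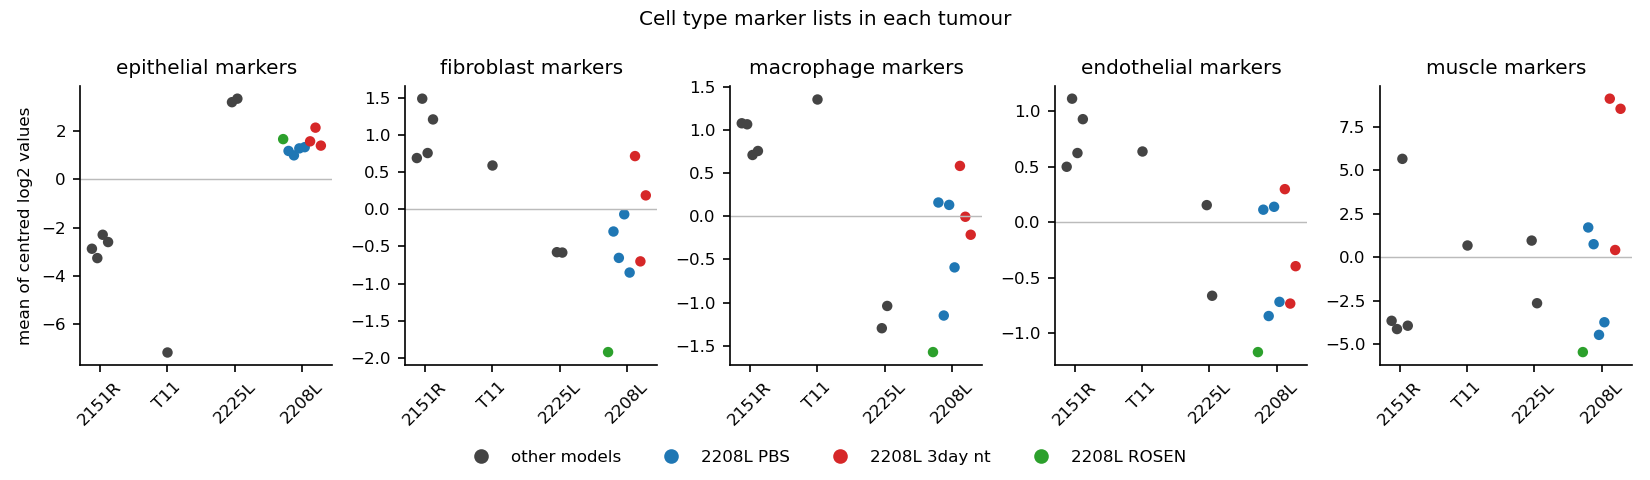
Mean of the centred log2 values over 5 lists of cell type markers (vertical axes) in each of the 15 tumours, grouped by model, with colours for the subsets of 2208L. Macrophage means lie above 0 in all tumours of 2151R and below -1 in both tumours of 2225L, and muscle means above 5 mark 1 tumour of 2151R and 2 of 2208L.

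For 1 gene of each role the 3 genes of the table with the most similar pattern were found, by the root mean square difference over the 15 tumours after each gene was taken minus its own mean. The points share models and libraries, so this measure describes model differences first. Nearest to Inhba were Ptgs2 (0.46 log2 units), Slc9a5 (0.47) and Ms4a14 (0.51), where the median over all genes was 1.76. Nearest to Tgfbr2 were Asah1 (0.23), St3gal2 (0.23) and Adam9 (0.26), with a median of 0.99. Nearest to Tgfbi were Gpr85 (0.34), Gata3 (0.47) and Il11 (0.47), with a median of 1.61.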

How the data were processed

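RNA-seq of 15 mouse mammary tumours was read from 1 table of log2 values that the authors deposited, with 17271 genes in rows and each gene centred. The submitters' processing notes name STAR, Salmon and mm10. Their roles and versions, the annotation, the offset and the normalization are not given in the sources used here. Values run from -14.55 to 13.11, and the median over these samples is exactly 0 in 1124 genes, so a value is a difference from a level that cannot be recovered. In 727 genes 2 or more samples share an identical value, and none of the 10 members is among them. Depth is unknown, since the table has no counts.

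Groups follow the models that the titles name. The limma package 3.58.1 under R 4.3.3 compared models (lmFit, eBayes) in 1 fit of 15 samples, and 2208L PBS with 2208L 3day nt in a fit of those 7 samples. P-values were adjusted by Benjamini-Hochberg over all genes. The procedure was tested on simulated data. T11, with 1 sample, was described by differences of at least 1 log2 unit. From each pathway list, genes were named by size of difference among those called, up to 3 in each direction for 2151R against 2208L and up to 2 for 2225L against 2208L and for the subsets of 2208L. Outside this rule Junb, Plaur, Ccn1, Col1a1, Col1a2 and Postn were named for 2225L, and Id1 and Id3 for 2151R. Values of 1 response gene are not reported here, while it is counted in its list. The members and lists were chosen with earlier results of these data known. Alternatives covered scaling, moderation, sample weights, filters, samples left out and the title code, CP or ROSEN.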

Additional observations from a re-analysis of the deposited data

Results flagged for a closer look

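Among 30 groups checked, 2 held a tumour that stood well away from the rest of its group, where chance gives about 1 in 20 groups, or 1.5. Tgfb3 was -0.115 in replicate 5 of 2208L, a PBS tumour, while the other 3 PBS tumours lay between 0.56 and 0.60. The same tumour had the lowest median over all genes of the series (-0.29). Inhba was -1.24 in replicate 1 of 2208L, the ROSEN tumour, while the other 7 tumours lay between -0.04 and 0.58. That tumour also had the lowest macrophage (-1.57), fibroblast (-1.92) and endothelial (-1.17) marker means of 2208L. The part of these in the values was not tested.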

How the results depend on the processing

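No paired analysis was possible because nothing in the labels pairs samples across groups, and replicate numbers only name them. Over the alternatives, values of the 10 genes kept direction and side of the threshold in 723 cases, lost the call in 56, gained one in 13 and changed sign in 20. The count of the 10 genes called between 2151R and 2208L was 6, fell to 3 at a difference of at least 1 log2 unit, without the 3 tumours of high muscle genes and with the samples whose titles have NT, nt or PBS alone, and ran from 3 to 7 with 1 tumour left out. Between 2225L and 2208L it was 5, became 2 with sample weights and ran from 4 to 6. Between the 2208L subsets it was 4, became 1 at 1 log2 unit and 0 without the tumours of high muscle genes, and ran from 1 to 5. All 20 sign changes were in differences that did not pass with all samples. Against the PBS tumours alone Tgfbr1 in 2151R became -0.0727 and Tgfbr3 in 2225L -0.1096, and against the 3day nt tumours alone Smad3 in 2151R became 0.1923. In 2225L against 2151R, Tgfb3 became -0.0124 with sample weights and -0.0738 without the tumours of high muscle genes. Tgfbr3 became 0.1373 in that comparison with the title code, CP or ROSEN, as a covariate. Tgfb2 between the 2208L subsets became 0.0135 after quantile normalization. With 1 tumour left out, differences of 2225L from 2208L ran from -0.295 to 0.8168 (Tgfb1), -0.5435 to 0.2434 (Tgfb2), -0.374 to 0.8855 (Tgfbr3) and -1.1472 to 0.2877 (Smad3). Those of 2225L from 2151R ran from -0.8375 to 0.2743 (Tgfb1), -0.0738 to 0.0849 (Tgfb3), -0.8888 to 0.3707 (Tgfbr3) and -1.0937 to 0.3411 (Smad3). Smad3 in 2151R against 2208L ran from -0.1839 to 0.0403, and Tgfb2 between the subsets from -0.2227 to 0.032. The cause was not tested. Of all genes, 3007 were higher and 2857 lower in PBS tumours, 5938 and 5754 with sample weights, 1723 and 1227 without replicate 6, 1362 and 1017 without replicate 8, and 1206 and 1002 at 1 log2 unit, and 1844 and 1780 were lower without replicates 2 and 3 in turn. At 1 log2 unit 2585 and 2566 differed between 2151R and 2208L, in place of 4508 and 3926, and with sample weights 2529 and 2723 between 2225L and 2151R, in place of 3934 and 4464. Depth is unknown.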
